A study of Mus musculus with 9 samples.

Results

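Genes that make up or mark antibody production, 10 in all, were followed in RNA from the main olfactory epithelium, the sheet of the nasal cavity that holds the olfactory sensory neurons. They are the heavy-chain constant genes Igha, Ighm, Ighd, Ighg2b, Ighg2c and Ighg3, the kappa light-chain constant gene Igkc, the joining chain gene Jchain, and the plasma cell genes Mzb1 and Xbp1. They were chosen by symbol, and all 10 were among the 55291 genes of the table and among the 23225 genes tested. The question was how the balance of antibody classes, called isotypes, and the level of these genes varied over mice and genotypes.

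The mice were of 3 genotypes, with 3 mice of each at an age of 8 to 12 weeks. The wild-type mice are labelled C57BL/6 and described as littermate controls. The Ms4a cluster knockout lacks the Ms4a genes through a CRISPR/Cas9 deletion, and the Ms4a6c knockout carries 1 Ms4a gene disrupted by homologous recombination. Both changes are in the germline, so every cell of the mouse carries them, blood cells included. Sex and litter were not given for the mice. Nothing states that the 3 mice of a genotype came from different litters, so p-values measure the spread between these mice.

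An antibody is built from 2 kinds of chain, heavy and light, and the constant part of the heavy chain sets the isotype. Naive B cells carry IgM and IgD on their surface, and after class switching a B cell uses the constant gene of an IgG, of IgA or of IgE. Plasma cells secrete the product in bulk, and at mucosal surfaces such as the nose much of it is IgA. The J chain joins IgA or IgM units into polymers, which the receptor encoded by Pigr carries across the epithelium.

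The coding ends of 4 constant genes are shown because they hold the residues by which the chains are joined. Each line gives the last 60 coding bases before the stop codon of the secreted form, from GENCODE M21 on build GRCm38. The genes are transcribed from the minus strand of chromosome 12, apart from Igkc on the plus strand of chromosome 6. Capitals mark the cysteine codon of the tailpiece in Igha and Ighm, which bonds to the J chain, and the last codon of Igkc, the cysteine that bonds to the heavy chain. Ighg2b has no such tailpiece and no capitals.
Igha, chr12:113258771-113258830: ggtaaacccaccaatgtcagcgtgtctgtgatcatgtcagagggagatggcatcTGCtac
Ighm, chr12:113420870-113420929: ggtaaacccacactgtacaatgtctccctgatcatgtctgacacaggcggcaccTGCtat
Ighg2b, chr12:113306392-113306451: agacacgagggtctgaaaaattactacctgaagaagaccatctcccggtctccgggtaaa
Igkc, chr6:70726695-70726754: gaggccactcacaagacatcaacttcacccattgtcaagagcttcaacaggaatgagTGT
Compared base by base without gaps, the ends of Igha and Ighm shared 41 of 60 bases. Those of Igha and Ighg2b shared 12 of 60, and those of Ighm and Ighg2b shared 25 of 60. These counts match bases only by their distance from the stop codon. By another measure, a gapped alignment of whole coding sequences, Ighg2b and Ighg2c were 85.9% identical over 1004 aligned bases. The other IgG pairs were 74.8% to 77.4% identical. Reads may therefore be divided between Ighg2b and Ighg2c with some error.

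The expected counts of a mouse, which are RSEM's estimates of the reads from each gene, summed to between 13954591 and 21987174. They were scaled by edgeR's TMM method and are given as CPM, which sets every mouse to 1 common library size. The genotypes were checked first. Ms4a6c was at 3.84, 4.99 and 4.66 CPM in the wild-type mice, at 0 counts in all 3 Ms4a cluster knockout mice and at 0, 2.35 and 2 counts in the Ms4a6c knockout mice. Omp, the marker of mature olfactory sensory neurons, was between 4018 and 5215 CPM in all mice. Wild-type mouse 1 and Ms4a cluster knockout mouse 2 stood apart. A list of nasal gland genes summed to 85819 and 86855 CPM there, against 12864 to 20275 CPM in the other 7 mice. These are called the gland-rich libraries below, and the calls and correlations that rest on them are given with and without them. Their TMM factors were 0.702 and 0.704, against 1.07 to 1.13 in the other 7 mice. A lower factor gives a higher CPM from the same counts, so higher levels in these libraries rest partly on the scaling. In whole tissue, fewer cells of a type and less RNA per cell cannot be told apart.

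Igha, the constant gene of IgA, differed more between wild-type mice than between genotypes. Wild-type mice 1, 2 and 3 had 718, 42 and 102 counts, or 51.0, 2.33 and 5.80 CPM. Ms4a cluster knockout mice had 52.8, 18.0 and 28.5 CPM, and Ms4a6c knockout mice had 62.9, 33.2 and 42.1 CPM. The highest mouse was 27.0-fold above the lowest, and without wild-type mouse 2 the range was 10.8-fold. Nearly all of the spread lay within the wild type, where the highest mouse was 21.9-fold above the lowest, against 2.92-fold in the Ms4a cluster knockout and 1.90-fold in the Ms4a6c knockout. The gland-rich wild-type mouse 1 lay among the knockout mice, and the other wild-type mice lay below all 6 of them.

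Jchain and Igkc had the same outline. Jchain was at 21.2, 3.00 and 2.33 CPM in the wild type, at 19.9, 8.57 and 11.2 CPM in the Ms4a cluster knockout and at 36.4, 15.6 and 22.4 CPM in the Ms4a6c knockout. Igkc was at 54.0, 11.9 and 6.37 CPM in the wild type, at 39.2, 19.3 and 22.7 CPM in the Ms4a cluster knockout and at 60.1, 34.3 and 53.8 CPM in the Ms4a6c knockout. For both genes wild-type mice 2 and 3 were the lowest of the 9 mice, and Ms4a6c knockout mouse 1 was the highest. Jchain ranged over 15.6-fold and Igkc over 9.42-fold.

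Ighm, the constant gene of IgM, varied less and in another order. It was at 32.3, 19.6 and 7.40 CPM in the wild type, at 16.7, 8.37 and 8.57 CPM in the Ms4a cluster knockout and at 9.02, 11.1 and 18.0 CPM in the Ms4a6c knockout. Its range was 4.36-fold, and the highest and the lowest mouse were both wild type. Ighd, which is read from the same primary transcript as Ighm in naive B cells, was low throughout, with 5 to 16 counts a mouse and 0.319 to 0.802 CPM.

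**Figure D1:**
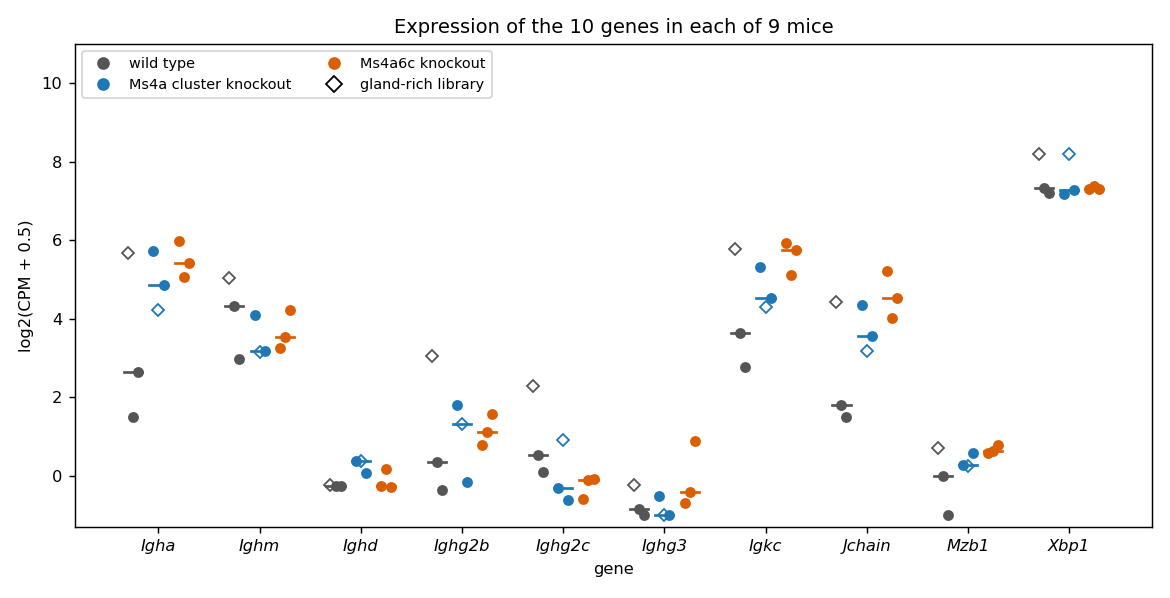
Each point is 1 mouse, on the vertical axis as log2(CPM + 0.5), for the 10 genes on the horizontal axis. Short lines are the medians of 3 mice, and open diamonds are the gland-rich libraries, wild-type mouse 1 and Ms4a cluster knockout mouse 2. For Igha, Igkc and Jchain the filled wild-type points lie below all knockout points, and for Xbp1 both diamonds lie above the other mice.

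The IgG genes were sparse. Ighg2b was at 7.75, 0.777 and 0.284 CPM in the wild type, at 3.01, 1.99 and 0.401 CPM in the Ms4a cluster knockout and at 1.23, 1.67 and 2.48 CPM in the Ms4a6c knockout, a 27.2-fold range. Ighg2c, the IgG2 gene that C57BL/6 mice carry in place of Ighg2a, was at 4.41, 0.943 and 0.569 CPM in the wild type. It was at 0.301, 1.40 and 0.150 CPM in the Ms4a cluster knockout and at 0.164, 0.434 and 0.446 CPM in the Ms4a6c knockout. Wild-type mouse 1 was the highest for both genes. Ighg3 passed 3 counts, the limit that a count of 0 allows, in 4 of 9 mice and had 0 counts in 3. Ms4a6c knockout mouse 3 had 21 of the 38 Ighg3 counts of all mice. Ighg1, the other IgG gene, had 1 to 17 counts a mouse, and Ighe, the IgE gene, had 0 counts in every mouse. This limit covers counting error only, since the reads carry no molecular identifiers.

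Mzb1 encodes a chaperone of the endoplasmic reticulum in B cells and plasma cells. It had 16, 9 and 0 counts in the wild type, 13.9, 7 and 20 in the Ms4a cluster knockout and 24, 17 and 19 in the Ms4a6c knockout. Wild-type mouse 3, which also had the lowest Igkc and Jchain, was the mouse at 0. Xbp1, the transcription factor that expands the secretory machinery of plasma cells and of other secretory cells, was far higher. It was at 291, 160 and 147 CPM in the wild type, at 145, 294 and 156 CPM in the Ms4a cluster knockout and at 156, 168 and 156 CPM in the Ms4a6c knockout. The gland-rich libraries were at 291 and 294 CPM, and the other 7 mice were within 145 to 168 CPM. The parts of gland tissue and of the TMM factors in the Xbp1 level were not tested.

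Per kilobase of transcript, which lets genes be compared, the order of levels differed between genotypes. In the wild type Xbp1 led at 93.5 ± 37.5 CPM per kb (SD, n = 3), followed by Igkc at 45.3 ± 48.9, Igha at 17.9 ± 24.7, Ighm at 13.2 ± 8.33 and Jchain at 6.34 ± 7.68 CPM per kb. The ranges of each pair of neighbours in that order overlapped across mice. Within each of the 3 wild-type mice, however, Xbp1 lay above Igkc, Igkc above Igha and Ighm above Jchain. Igha lay above Ighm in wild-type mice 1 and 3 and below it in mouse 2. In the Ms4a6c knockout Igkc led at 92.8 ± 25.2 CPM per kb (SD, n = 3), followed by Xbp1 at 75.2 ± 3.04, Igha at 41.9 ± 13.9, Jchain at 17.8 ± 7.62 and Ighm at 8.52 ± 3.16 CPM per kb. There Igha lay below Xbp1 and above Jchain in all 3 mice, whereas the ranges of Igkc and Xbp1 overlapped, as did those of Jchain and Ighm. In the Ms4a cluster knockout Xbp1 was at 93.2 ± 39.0, Igkc at 50.9 ± 20.0, Igha at 30.1 ± 16.2, Jchain at 9.51 ± 4.27 and Ighm at 7.51 ± 3.18 CPM per kb (SD, n = 3). Within each mouse of both knockouts Jchain lay above Ighm, the reverse of the wild-type order. This is a description with no test.

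The isotype balance was taken as each gene's share of all heavy-chain constant counts of a mouse after division by the length of the secreted form. Igha held 57.7%, 12.2% and 45.1% in the wild-type mice, with a mean of 38.4% ± 23.5 (SD, n = 3). It held 75.3%, 62.1% and 78.8% in the Ms4a cluster knockout mice, with a mean of 72.1% ± 8.82 (SD, n = 3), and 87.6%, 72.7% and 69.8% in the Ms4a6c knockout mice, with a mean of 76.7% ± 9.55 (SD, n = 3). All 6 knockout mice were above all 3 wild-type mice, wild-type mouse 1 included, and both knockouts were set against the same wild-type mice. These shares join several genes of the list, so they are given as a description with no test. With the lengths of the longest transcripts, which include the membrane form, the means were 26.8%, 59.6% and 65.7%, and the knockout mice were still above the wild-type mice. Without length correction Igha held 9.68% of 434 counts in wild-type mouse 2 (95% Clopper-Pearson interval 7.06% to 12.9%) and 52.7% of 1363 counts in wild-type mouse 1 (49.99% to 55.4%). The lowest knockout share on that scale was 58.2% of 311 counts, in Ms4a cluster knockout mouse 2, with an interval of 52.5% to 63.7%, which overlaps with that of wild-type mouse 1. These intervals and those of the variable genes below treat reads as independent and cover counting error within 1 mouse only, not the spread between mice.

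The rest of the heavy-chain counts was mostly IgM. Ighm held 26.9%, 75.8% and 42.4% per kb in the wild type, 17.5%, 21.2% and 17.5% in the Ms4a cluster knockout and 9.25%, 17.9% and 22.1% in the Ms4a6c knockout. Per kb, Igha was 2.15, 0.161 and 1.06 times Ighm in the wild-type mice, 4.29, 2.92 and 4.52 times in the Ms4a cluster knockout mice and 9.47, 4.06 and 3.17 times in the Ms4a6c knockout mice. On this scale IgM was the larger class in wild-type mouse 2 alone. In plain counts Ighm was also above Igha in wild-type mouse 3, at 130 against 102 counts, and it was above it there with the longest transcripts as lengths. The 4 IgG genes together held between 1.65% and 14.8%, and the highest share was that of wild-type mouse 1.

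**Figure D2:**
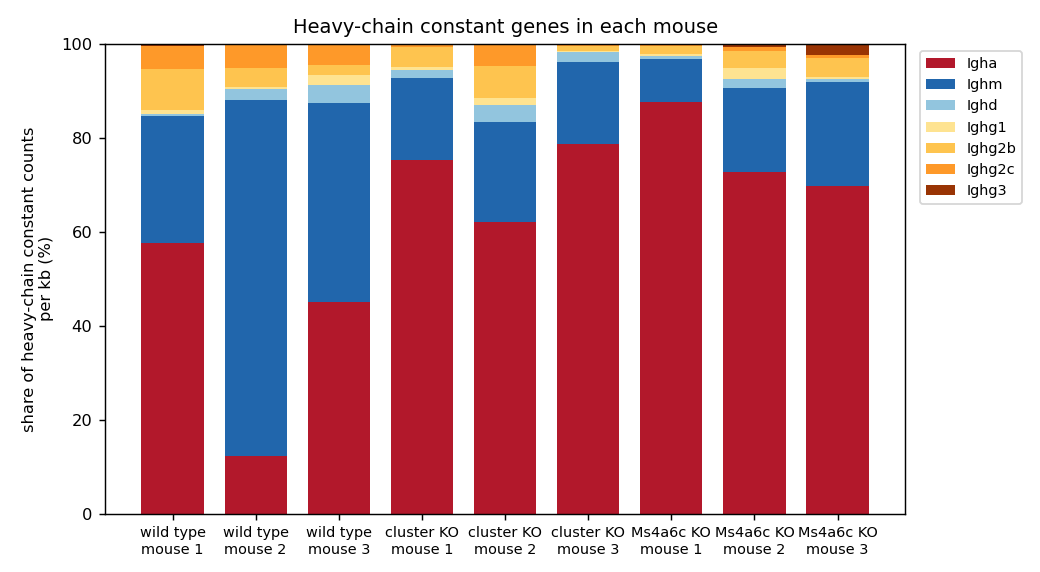
Bars are the 9 mice, and colors divide each bar into the shares (%) of the heavy-chain constant genes per kb of the secreted form. Igha takes 12.2% to 57.7% in the wild type, 62.1% to 78.8% in the Ms4a cluster knockout and 69.8% to 87.6% in the Ms4a6c knockout.

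The joining chain was also compared with the chains it joins. There were 0.254, 0.137 and 0.177 Jchain counts for each count of Igha and Ighm in the wild type, 0.287, 0.325 and 0.303 in the Ms4a cluster knockout and 0.507, 0.353 and 0.373 in the Ms4a6c knockout. The 3 ranges did not overlap, and again this is a description with no test. Among light chains, the lambda genes Iglc1, Iglc2 and Iglc3 held 3.69% to 11.8% of the constant counts of a mouse, and Igkc held the rest.

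Iglc1 was the constant gene with the smallest p in the table. It was at 0.142, 0.0555 and 0.228 CPM in the wild type, from 2, 1 and 4 counts, at 0.401, 1.5 and 0.451 CPM in the Ms4a cluster knockout and at 3.07, 1.05 and 1.40 CPM in the Ms4a6c knockout. Both knockouts lay above the wild type, yet the adjusted p did not pass 0.05 in the Ms4a6c knockout (log2 fold change 3.66, SE 0.72, edgeR adjusted p = 0.0755, unadjusted p = 0.000447) or in the Ms4a cluster knockout (2.29, SE 0.78, edgeR adjusted p = 0.968). The wild-type counts were at the limit of detection, so the size of these folds depends on the fit. Iglc1 in the Ms4a6c knockout passed with DESeq2 (adjusted p = 0.00146) and, in edgeR, without both gland-rich libraries (edgeR adjusted p = 0.0438). Iglc2 and Iglc3 are 96.5% identical, so reads may be divided between them with some error, whereas Iglc1 is 73.2% and 73.9% identical to them. The expected counts of Iglc2 and Iglc3 were whole numbers in every mouse.

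The genotypes were compared gene by gene with edgeR's quasi-likelihood test over all 23225 genes. For the Ms4a cluster knockout, 0 of 10 members passed an adjusted p of 0.05 against wild type, where 0.0258% of all tested genes did. The unadjusted p was under 0.05 for 1 member and for 4.93% of all tested genes, and DESeq2 called 0. In the Ms4a6c knockout against wild type 0 of 10 passed in edgeR, where 0.435% of all genes did. Before adjustment 1 member and 10.5% of all tested genes had p under 0.05. DESeq2 called 0 members there and gave no adjusted p for Ighd and Ighg3. Between the knockouts 0 of 10 passed in both tools, where edgeR called 0.443% of all genes, and before adjustment 0 members and 9.38% of all genes had p under 0.05. The median log2 fold changes of the 10 members were 0.097, 0.65 and -0.29 in these comparisons, against 0.0072, -0.0016 and 0.0070 over all tested genes.

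IgA and its partners had positive estimates in both knockouts with all mice, and none passed the test. The estimate of Igkc in the Ms4a cluster knockout was negative without wild-type mouse 2 (-0.13), wild-type mouse 3 (-0.26) or Ms4a cluster knockout mouse 1 (-0.17). Igha differed from wild type by a log2 fold change of 0.79 (SE 0.84, edgeR adjusted p = 0.989) in the Ms4a cluster knockout and of 1.26 (SE 0.84, edgeR adjusted p = 0.638) in the Ms4a6c knockout. Jchain differed by 0.64 (SE 0.71, edgeR adjusted p = 0.993) and by 1.53 (SE 0.70, edgeR adjusted p = 0.485), and Igkc by 0.20 (SE 0.63, edgeR adjusted p = 0.9995) and by 1.06 (SE 0.62, edgeR adjusted p = 0.583). Ighm had negative estimates of -0.79 (SE 0.48) and -0.64 (SE 0.47), with edgeR adjusted p values of 0.971 and 0.678.

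A pair of members separated the groups without passing the test. Ighd was higher in all 3 Ms4a cluster knockout mice than in any wild-type mouse, at 0.802, 0.797 and 0.551 against 0.355, 0.333 and 0.341 CPM (log2 fold change 1.04, SE 0.42, edgeR adjusted p = 0.968, unadjusted p = 0.0333). Of all tested genes, 9.86% had groups that did not overlap in that comparison, so 1 of 10 members was near the background. Ighg2c was lower in all Ms4a6c knockout mice than in any wild-type mouse (log2 fold change -2.51, SE 0.93, edgeR adjusted p = 0.372, unadjusted p = 0.0223), where 18.3% of all genes did not overlap. Without wild-type mouse 1, which held the most Ighg2c, the estimate was -1.16 (edgeR adjusted p = 0.663, unadjusted p = 0.200), and it was also -1.16 without both gland-rich libraries (edgeR adjusted p = 0.380). In the Ms4a cluster knockout the Ighg2c estimate was -1.84 (SE 0.91, edgeR adjusted p = 0.968), -0.47 without wild-type mouse 1 and -3.06 without Ms4a cluster knockout mouse 2, the gland-rich libraries. Between the knockouts 0 members separated the groups, with 16.0% of all genes doing so.

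Leaving out 1 wild-type mouse changed the calls of members only in the Ms4a6c knockout against wild type. Without wild-type mouse 1, a gland-rich library and the wild-type mouse with the most Igha, 3 of 10 members passed in the Ms4a6c knockout, where 143 of 22966 tested genes did (0.623%). Igha then differed from wild type by a log2 fold change of 3.51 (edgeR adjusted p = 0.0241), Jchain by 3.22 (edgeR adjusted p = 0.0184) and Igkc by 2.43 (edgeR adjusted p = 0.0257). The same 3 genes passed without both gland-rich libraries, with edgeR adjusted p values of 0.00796, 0.00978 and 0.0138, and 350 of 22710 tested genes passed there (1.54%). In the Ms4a cluster knockout the corresponding log2 fold changes without wild-type mouse 1 were 3.05, 2.33 and 1.58, and the edgeR adjusted p values were 0.323, 0.381 and 0.504. These fits hold 2 wild-type mice, those with the least Igha. Xist, which is expressed from the inactive X chromosome of female cells, was at 0 CPM in wild-type mouse 1 and at 296 and 366 CPM in wild-type mice 2 and 3. It was at 272, 247 and 2.61 CPM in the Ms4a cluster knockout and at 277, 1.67 and 0.892 CPM in the Ms4a6c knockout. The fits without wild-type mouse 1 therefore set 2 wild-type mice with high Xist against a Ms4a6c group with 1 such mouse. With all 9 mice and Xist as a covariate 0 members passed, and the log2 fold change of Igha in the Ms4a6c knockout was 1.80 (edgeR adjusted p = 0.523). Xist as a covariate was not tested in the fits without wild-type mouse 1.

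**Figure D3:**
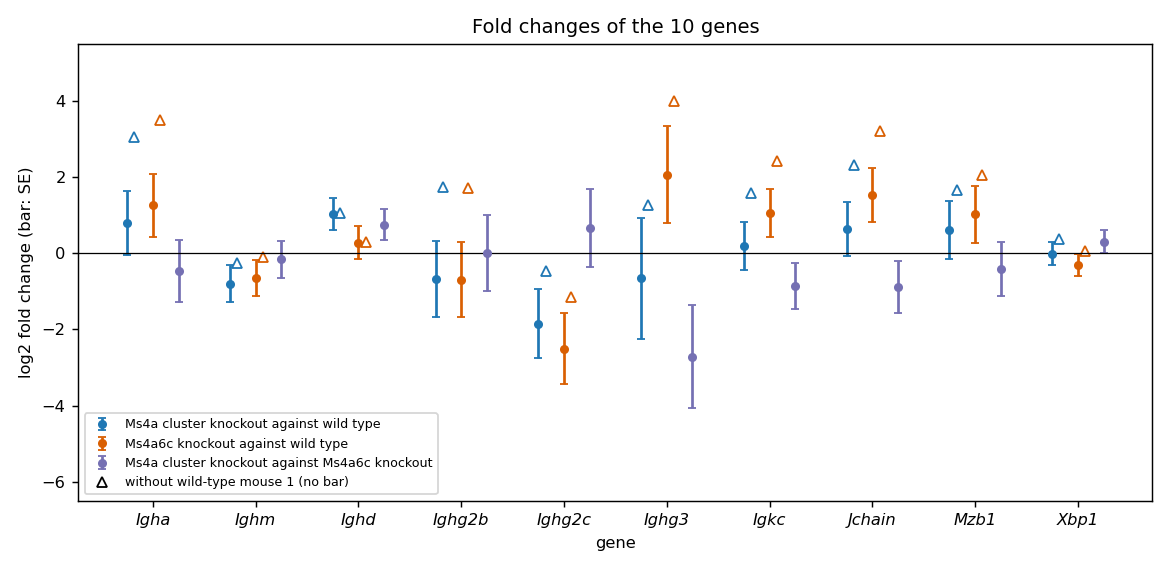
Circles are log2 fold changes of the 10 genes in the 3 comparisons, with bars of 1 standard error, and open triangles are the estimates against wild type without wild-type mouse 1. For Igha in the Ms4a6c knockout the estimate was 1.26 with all mice and 3.51 without that mouse.

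Genes that moved with Igha over the 9 mice were sought among 11 relations, on log2(CPM + 0.5). Jchain and Igkc followed it, Jchain more closely by Pearson's r and Igkc by Spearman's rho. Jchain had r = 0.953 (exact permutation test, two-sided p = 0.00022, adjusted p = 0.00243) and rho = 0.917 (exact permutation p = 0.00131, adjusted p = 0.00721). Igkc had r = 0.892 (exact permutation p = 0.00208, adjusted p = 0.0114) and rho = 0.933 (exact permutation p = 0.00075, adjusted p = 0.00721). Without wild-type mice 2 and 3, the farthest from the median of Igha, r was 0.944 for Jchain and 0.910 for Igkc over 7 mice (exact permutation adjusted p = 0.0153 and 0.0207). The Spearman test did not pass there, with an exact permutation adjusted p of 0.131 for both genes. Within genotypes, with each genotype's mean removed, r was 0.936 and 0.864. Without the gland-rich libraries r was 0.951 (exact permutation adjusted p = 0.0371) for Jchain and 0.886 for Igkc, for which the adjusted p no longer passed 0.05 (exact permutation adjusted p = 0.0575).

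The other relations were not past the threshold. Mzb1 had r = 0.718 (exact permutation p = 0.0381, adjusted p = 0.140) and rho = 0.567 (exact permutation p = 0.121, adjusted p = 0.265), and 0.339 without wild-type mice 2 and 3. Ighg2b had r = 0.588 (exact permutation p = 0.102, adjusted p = 0.281) and rho = 0.600 (exact permutation p = 0.0968, adjusted p = 0.265). Ighm had r = 0.136 and rho = 0.283, and Xbp1 had r = 0.139 and rho = -0.183, with exact permutation adjusted p values between 0.637 and 0.861. Pigr, the receptor that carries polymeric IgA, had r = -0.111 and rho = -0.333, and Ccl28, the chemokine that draws IgA plasma cells to mucosa, had r = 0.0694 and rho = 0.217 (exact permutation adjusted p between 0.606 and 0.861). Both were highest in the gland-rich libraries, with Pigr at 141 and 179 CPM and at most 82.8 CPM in the other mice.

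**Figure D4:**
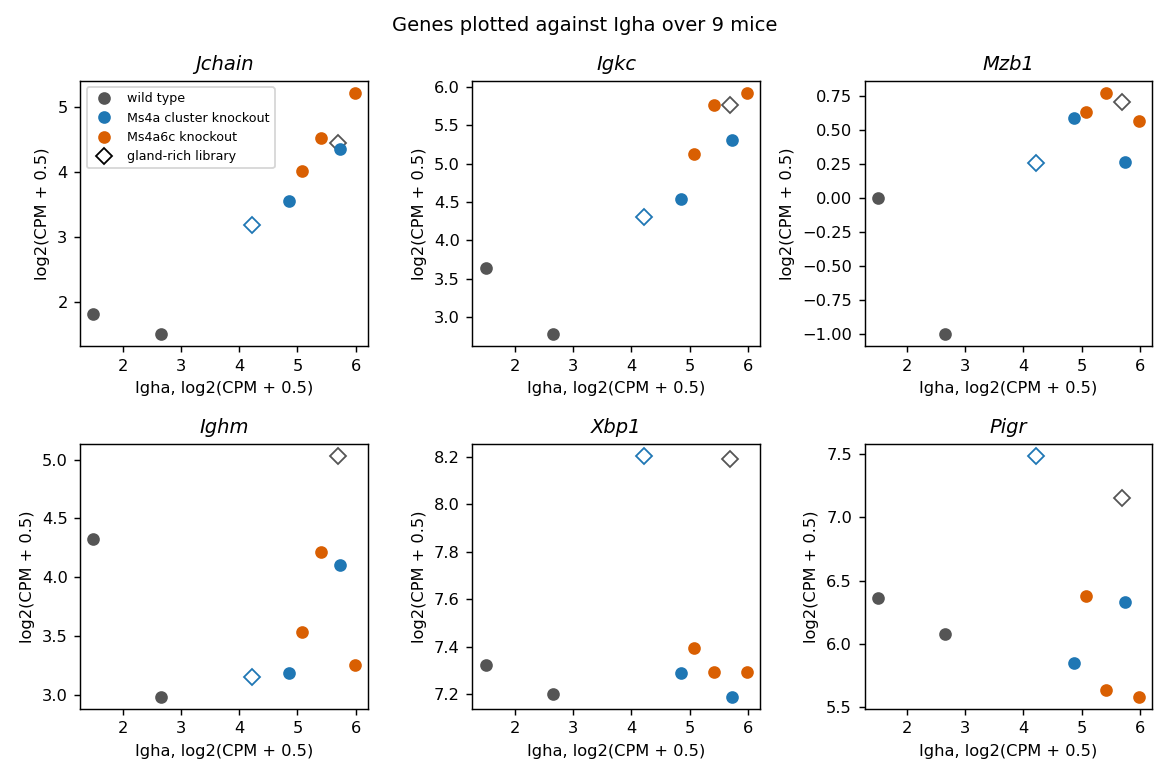
Each panel plots 1 gene against Igha over the 9 mice, both as log2(CPM + 0.5), with genotypes by color and the gland-rich libraries as open diamonds. Jchain and Igkc rise with Igha (r of 0.953 and 0.892), whereas Xbp1 and Pigr separate the gland-rich libraries from the other mice.

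Among 16537 tested genes with a mean of at least 1 CPM, Jchain had rank 3 by its r with Igha and Igkc had rank 28. The genes ranked above Jchain were Adprm (r = 0.974) and Snx15 (r = 0.969), and those ranked next were Cant1, Limch1, Trub1, 1110038F14Rik, Ercc2, Tmem259 and Ksr2, with r from 0.928 to 0.951. Jchain spanned 3.71 and Ksr2 spanned 1.66 on the log2 scale, while the other 8 spanned 0.196 to 0.507. Apart from Jchain, these genes were picked from all 16537 by their r in these same mice. A high r follows from that choice, and whether they track Igha was not tested.

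The variable genes, which encode the antigen-binding end, were read mouse by mouse. Of 183 Ighv genes 78 had a count above 0, with 730 counts over all mice, and of 160 Igkv genes 82 did, with 2089 counts. The leading Ighv gene was a different one in each of the 9 mice, with a tie at 5 counts in Ms4a6c knockout mouse 2. Ighv10-1 had 44 of 178 Ighv counts in Ms4a6c knockout mouse 1 (24.7%, 95% Clopper-Pearson interval 18.6% to 31.7%) and 14 counts in the other 8 mice together. Ighv1-5 had 32 of 102 in Ms4a cluster knockout mouse 3 (31.4%, interval 22.5% to 41.3%). Igkv5-43 had 94 of 386 Igkv counts in Ms4a6c knockout mouse 3 (24.4%, interval 20.2% to 29.0%) and at most 19 counts in any other mouse. In wild-type mouse 1, with 104 Ighv counts, the leading gene Ighv8-8 had 9. The variable genes are a large family of similar sequences, so counts of single genes are uncertain. All 34 diversity and joining segments in the table were at 0 counts.

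Other genes of plasma cells were read next. Of 15 plasma cell genes 0 passed in any comparison with edgeR. In the 3 comparisons 0, 1 and 0 had an unadjusted p under 0.05, against 4.93%, 10.5% and 9.38% of all tested genes. DESeq2 also called 0 of the 15 genes. Tnfrsf17, the survival receptor of plasma cells, had 0 to 5 counts a mouse, and Sdc1, which epithelial cells also make, was at 27.7 to 33.1 CPM in all mice. The summed level of the list was 449 and 448 CPM in the gland-rich libraries and 245 to 266 CPM in the other mice. Prdm1, which drives plasma cell differentiation, was at 1.52 to 3.07 CPM, and Irf4 at 0.498 to 1.42 CPM.

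Of 16 B cell genes 0 passed against wild type in either knockout with edgeR. There 2 and 1 had an unadjusted p under 0.05, against 4.93% and 10.5% of all tested genes. The median log2 fold changes of the 16 genes were 0.42 and 0.49. Between the knockouts Ms4a1, which encodes CD20 and is part of the deleted cluster, was the gene that passed, at 0 counts in the 3 Ms4a cluster knockout mice and at 13, 26 and 8 counts in the Ms4a6c knockout mice (edgeR adjusted p = 0.04995, just under the threshold). Without both gland-rich libraries its edgeR adjusted p was 0.0890, and DESeq2 called it in both comparisons of the Ms4a cluster knockout. The B cell genes summed to 21.0 to 24.4 CPM in the wild type, 22.3 to 34.0 CPM in the Ms4a cluster knockout and 25.3 to 37.3 CPM in the Ms4a6c knockout. Cd79a, a signalling chain of the B cell receptor, was at 1.49, 0.555 and 0.626 CPM in the wild type and at 0.902, 2.42 and 1.27 CPM in the Ms4a6c knockout, with overlapping groups. B cell precursor genes, 8 in all, passed in 0 comparisons with edgeR or DESeq2, and 0 had an unadjusted p under 0.05.

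Of 17 genes of the unfolded protein response, the program in which XBP1 acts, 0 passed in edgeR or DESeq2. In edgeR 2, 1 and 0 had an unadjusted p under 0.05, against 4.93%, 10.5% and 9.38% of all tested genes. The summed level of the 17 genes was 2056 and 2149 CPM in the gland-rich libraries and 1585 to 1772 CPM in the others. The lower TMM factors of the gland-rich libraries raise their CPM, and sums on plain library size were not compared. Of 12 genes of IgA transport and recruitment 10 were tested and 0 passed in edgeR. In each comparison 2 had an unadjusted p under 0.05, against 4.93%, 10.5% and 9.38% of all tested genes. DESeq2 called 1 of the 10, the integrin gene Itga4, between the knockouts. It and Mpo below are named after their values were seen.

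Markers of other blood-borne cells were read in the same fit. With edgeR 0 of 5 red cell genes and 0 of 9 granulocyte genes passed for the Ms4a6c knockout against wild type, while before adjustment p was under 0.05 for 5 in each list and for 10.5% of all tested genes. DESeq2 called 1 granulocyte gene, Mpo, and 0 red cell genes in that comparison, and it called Ltf between the knockouts. The red cell genes summed to 665 to 913 CPM in the wild type, 803 to 2058 CPM in the Ms4a cluster knockout and 814 to 2346 CPM in the Ms4a6c knockout. The granulocyte genes summed to 196 to 448, 354 to 711 and 169 to 359 CPM. Ltf, named after its values were seen, had the largest mean of that list in each genotype, at 254, 423 and 111 CPM. In the Ms4a6c knockout 8 of 9 granulocyte genes had positive estimates against wild type (median log2 fold change 0.95), whereas the mean of Ltf was lower. Ms4a6c knockout mouse 1, which had the most Igha, had 814 CPM of red cell genes and 169 CPM of granulocyte genes, the lowest of its group in both. The 6 macrophage genes summed to 114 to 132 CPM in the wild type, 122 to 147 CPM in the Ms4a cluster knockout and 97.4 to 104 CPM in the Ms4a6c knockout. Their median log2 fold change in the Ms4a6c knockout was -0.30, with 0 passing and 2 at an unadjusted p under 0.05 in edgeR. Without both gland-rich libraries edgeR called Cd68 and Csf1r there, and DESeq2 with all mice called C1qb and C1qc between the knockouts (these 4 genes are named after their values were seen). T cell genes summed to 3.05 to 5.51 CPM in all mice. The part of blood or marrow in the immunoglobulin levels was not tested.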

How the data were processed

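Olfactory epithelium RNA of 9 mice was used. From strand-specific poly-A libraries, the authors aligned paired-end reads with STAR 2.6.1, estimated expected counts with RSEM 1.3.1 on GENCODE M25 (mm10), and deposited them without normalization. They used DESeq2 1.30.1 themselves.

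Expected counts were rounded. Genes with at least 10 counts over the 9 mice were scaled by TMM and tested with edgeR 4.0.16 (R 4.3.3) quasi-likelihood in 1 model of all mice, and p-values were adjusted by Benjamini-Hochberg over 23225 genes. SEs were obtained by dividing the absolute log2 fold change by sqrt(F). DESeq2 1.42.0 was an alternative. With 3 mice a group, an exact permutation test cannot go below p = 0.1, so none was made between groups. Correlations were tested over all 362880 pairings and adjusted over 11 relations. Lengths, coordinates and sequences came from GENCODE M21. Python 3.11, scipy 1.17.1, biopython 1.88 and matplotlib 3.10.9 were used. The procedure was tested on simulated counts for the Ms4a6c knockout against wild type. It recovered 55 of 100 genes changed 2-fold and 85 of 100 changed 4-fold, with 14 false calls, so 2-fold changes can be missed.

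The members, gene lists and rules were chosen with earlier results of these data known. Genes named are the 10 members, the genotype checks, listed genes that passed, other constant genes and B cell, plasma cell and transport markers, leading variable genes, and the 10 genes most like Igha. Alternative settings are given in the closing section. No coordinates are given for Mzb1.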

Additional observations from a re-analysis of the deposited data

How the results depend on the processing

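The count of members passing stayed at 0 in every comparison under DESeq2, its size factors in edgeR, no filter or filterByExpr, the 2 genotypes alone, Xist as a covariate and the replicate block. The replicate block did move the Ms4a6c knockout estimates against wild type. Igha was then 1.98 (edgeR unadjusted p = 0.00987, adjusted p = 0.350), Jchain 1.92 (0.00204 and 0.213) and Igkc 1.43 (0.0141 and 0.394). With the block 2, 3 and 0 members had an unadjusted p under 0.05 in the 3 comparisons, against 3.87%, 8.91% and 7.99% of all tested genes. With filterByExpr 8 members were tested, without Ighd and Ighg3. DESeq2 gave these 2 genes no adjusted p in the Ms4a6c knockout against wild type. In that comparison the count of members was 0 to 3 with single mice left out, and 3 without wild-type mouse 1. It was also 3 there without both gland-rich libraries, an alternative chosen after the data were seen, as was the longest transcript as length. Over all genes, the calls in the Ms4a cluster knockout were 18 with DESeq2 and 3 to 7 with single mice left out. In the Ms4a6c knockout they were 345 with DESeq2, 182 with no filter, 350 without the gland-rich libraries and 59 to 143 with single mice left out, and between the knockouts 271, 155 and 66 to 97 for DESeq2, no filter and single mice. The causes were not tested. Whether the replicate numbers pair the mice is not stated. Over 16537 genes, deviations of same-numbered mice correlated at -0.58 to -0.17, -0.08 to 0.05 and -0.12 to 0.12 in the 3 comparisons. Such correlations cannot settle whether mice of 1 number shared a litter or handling. Igha was highest in mouse 1 and lowest in mouse 2 of every genotype, and Jchain and Igkc were highest in mouse 1 of every genotype. With the replicate block edgeR called 2, 71 and 75 genes over all genes.

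The range of Igha was 10.8-fold to 27.0-fold with single mice left out. The mean IgA share was 28.7% to 51.4% in the wild type, 68.7% to 77.05% in the Ms4a cluster knockout and 71.3% to 80.2% in the Ms4a6c knockout with single mice left out, and 59.6% and 65.7% in the knockouts with the longest transcript. Estimates of members that changed sign, none past the test, were as follows. In the Ms4a cluster knockout with Xist as a covariate, Ighg2b was 0.57, Ighg3 0.25 and Xbp1 0.11, and without the gland-rich libraries Ighg2b was 1.67 and Ighg3 1.62. In the Ms4a6c knockout Ighg2b was 0.28 with the replicate block and 1.73 without the gland-rich libraries, where Xbp1 was 0.067. Between the knockouts Ighm was 0.13 with Xist as a covariate, Ighg2b was -0.58 with the replicate block, and without the gland-rich libraries Ighg2b was -0.060, Ighg2c -0.56 and Xbp1 -0.091. With single mice left out, the Ms4a cluster knockout gave -1.40 to 1.74 for Ighg2b, -4.18 to 1.27 for Ighg3, -0.26 to 1.58 for Igkc and -0.40 to 0.37 for Xbp1. The Ms4a6c knockout gave -0.085 to 0.45 for Ighd, -1.24 to 1.73 for Ighg2b and -0.49 to 0.065 for Xbp1. Between the knockouts the ranges were -0.58 to 0.17 for Ighm, -0.71 to 0.52 for Ighg2b, -0.55 to 1.19 for Ighg2c and -0.089 to 0.49 for Xbp1.

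The r with Igha changed sign for genes not past the test: to -0.0984 for Ighm and -0.0863 for Ccl28 without the gland-rich libraries, to -0.0478 for Ighd, 0.50 for Ighg2c and 0.180 for Pigr within genotypes, to -0.568 for Ighd, -0.412 for Xbp1 and -0.231 for Ccl28 without wild-type mice 2 and 3, and to -0.0215 for Xbp1 and -0.0761 for Ccl28 with the plain library size. Igkc kept r = 0.886 without the gland-rich libraries, with an exact permutation adjusted p of 0.0575. Ighg3, Ighd and Mzb1 had 38, 75 and 126 counts over all mice, which limits the precision of their estimates. The Spearman test for Igkc and Jchain did not pass without wild-type mice 2 and 3.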
